A study of Mus musculus with 4 samples.

Results

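Heme is the iron-containing ring that carries oxygen in hemoglobin and electrons in cytochromes, and every cell makes some of it. Synthesis starts in the mitochondrion, where aminolevulinate synthase joins glycine to succinyl-CoA, continues in the cytosol, and ends in the mitochondrion, where ferrochelatase inserts iron into protoporphyrin. The opening step has a ubiquitous form, Alas1, which is held down by heme itself, and an erythroid form, Alas2, which is switched on by GATA1 as red cells load hemoglobin. In the embryonic limb bud, red cells of the yolk sac lineage circulate through the vessels of the mesenchyme.

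The genes described are the heme biosynthesis enzymes Alas1, Alas2, Alad, Uros, Urod, Cpox, Ppox and Fech, taken by symbol in pathway order. All 8 were found among the 25239 gene symbols of the count table, and all 8 passed the filter on low counts that left 14610 genes for testing. A further enzyme of the pathway is not analysed here. RNA was sequenced from sorted hindlimb bud cells of FVB mouse embryos at embryonic day 11.5, labelled wild-type apart from a transgene. Every embryo, in both groups, carried the reporter hsp68-hZRS(404G>A)-mCherry at H11, in which a single-base variant of the human ZRS limb enhancer, with an hsp68 promoter, drives mCherry. Anterior cells positive for mCherry (2 libraries) were compared with central cells negative for mCherry (2 libraries), so domain and reporter status change together and cannot be told apart. The labels do not say how many embryos gave each library, so p-values measure the spread between these libraries, which may be technical.

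Library totals ranged from 30080925 to 33257383 counts. Limb mesenchyme genes were present in all libraries: Prrx1 measured 716 and 676 CPM in the anterior and 681 and 641 CPM in the central libraries. Here CPM means counts per 1000000 after TMM scaling of the libraries. Of 7 mesenchyme markers, 3 were called higher in anterior cells, 1 was called lower and 3, with Prrx1 among them, were not called. Msx1 measured 238 and 253 CPM in anterior against 29.1 and 22.3 CPM in central libraries, and Pdgfra 277 and 238 CPM against 593 and 571 CPM. Red cell genes separated the populations. The summed level of the 13 tested erythroid markers and 4 markers at 0 was 3298 and 8415 CPM in the anterior libraries, against 11.5 and 15.5 CPM in the central ones. All 13 tested markers were called higher in anterior cells, and the 4 adult globin genes Hba-a1, Hba-a2, Hbb-bt and Hbb-bs, which have near-identical copies, were listed at 0 in every library. Anterior replicate 2 held more of this RNA than anterior replicate 1, and values without each of them are given below. In bulk samples, fewer cells of a type and less RNA per cell cannot be told apart.

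Sequence upstream of the starts of Alas2, Cpox and Alas1 is shown because the first of these differs most between the populations, the second differs moderately, and the last is the ubiquitous counterpart of the first. Each run is the 250 bases before a RefSeq start (GRCm38.p6), read 5′ to 3′ on the gene's strand. Capitals mark matches, on either strand, to the GATA motifs AGATAA and TGATAA, the CACC box CACCC bound by KLF1 and related factors, the NRF1 core GCATGCGC, and the TATA box TATAAA. The Alas2 run is chrX:150547167-150547416 (plus strand), the Cpox run chr16:58669958-58670207 (plus strand) and the Alas1 run, from the further downstream of its 2 starts, chr9:106247731-106247980 (minus strand).
Alas2: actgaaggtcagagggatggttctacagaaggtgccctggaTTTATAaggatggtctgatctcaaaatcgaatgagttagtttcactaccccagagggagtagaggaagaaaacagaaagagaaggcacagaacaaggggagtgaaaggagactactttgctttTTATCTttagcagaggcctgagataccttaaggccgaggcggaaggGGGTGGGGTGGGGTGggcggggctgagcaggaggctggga
Cpox: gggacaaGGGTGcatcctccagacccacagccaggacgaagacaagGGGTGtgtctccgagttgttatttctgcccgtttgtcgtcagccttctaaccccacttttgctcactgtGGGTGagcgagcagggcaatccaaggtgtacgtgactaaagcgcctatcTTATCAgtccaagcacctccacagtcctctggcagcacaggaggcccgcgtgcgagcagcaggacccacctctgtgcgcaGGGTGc
Alas1: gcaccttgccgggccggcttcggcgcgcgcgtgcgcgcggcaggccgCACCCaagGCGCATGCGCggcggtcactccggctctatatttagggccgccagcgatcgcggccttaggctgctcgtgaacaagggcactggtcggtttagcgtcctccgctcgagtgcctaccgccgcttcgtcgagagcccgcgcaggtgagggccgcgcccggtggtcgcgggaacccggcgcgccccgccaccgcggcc

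The Alas2 run held a GATA match, TTATCT, 86 to 81 bases before the start and 3 CACC boxes in a row between 40 and 26 bases before it, with a TATA match far upstream, 209 to 204 bases before the start. Cpox held a GATA match, TTATCA, also 86 to 81 bases before its start, with 4 CACC boxes. Alas1 held neither GATA motif in this run, but a pair of overlapping NRF1 core matches from 195 to 186 bases before the start and 1 CACC box. Promoter entries were used for 7 of the 8 enzymes, with 10 windows in all, and Fech was left out. Among these windows, the only other GATA match lay in 1 of the 2 Uros windows. Over all 32851 promoter windows of the same length, 16.6% held a GATA motif of either form, 52% a CACC box, 2.26% the NRF1 core and 12.4% the TATA box. In the GENCODE annotation used for the gene positions below, Alas2 and Alas1 begin upstream of these RefSeq starts. The whole Alas1 run and the part of the Alas2 run with the CACC boxes therefore lie inside the annotated genes. A match is a string of letters, not a measured binding site.

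The comparison asked which enzymes differ between the anterior and the central population. Of the 8 enzymes, 4 were called higher in anterior cells, where called means an adjusted p under 0.05 in the quasi-likelihood test of edgeR, with the Benjamini-Hochberg correction applied over all tested genes. These were Alas2, Alad, Cpox and Fech, which catalyse the opening step in red cells, the next step, a late oxidation and the final insertion of iron. Alas1, Uros, Urod and Ppox were not called. Of all tested genes, 22.9% were called, 10.7% as higher in anterior cells and 12.3% as lower. No enzyme was called lower, by edgeR, limma-voom or the DESeq2 Wald test, and 0 of the 8 were lower at an unadjusted p-value under 0.05 by any of the 3 tools. The median log2 fold change, anterior minus central, was 0.42 over the 8 enzymes and -0.01 over all tested genes.

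**Figure D1:**
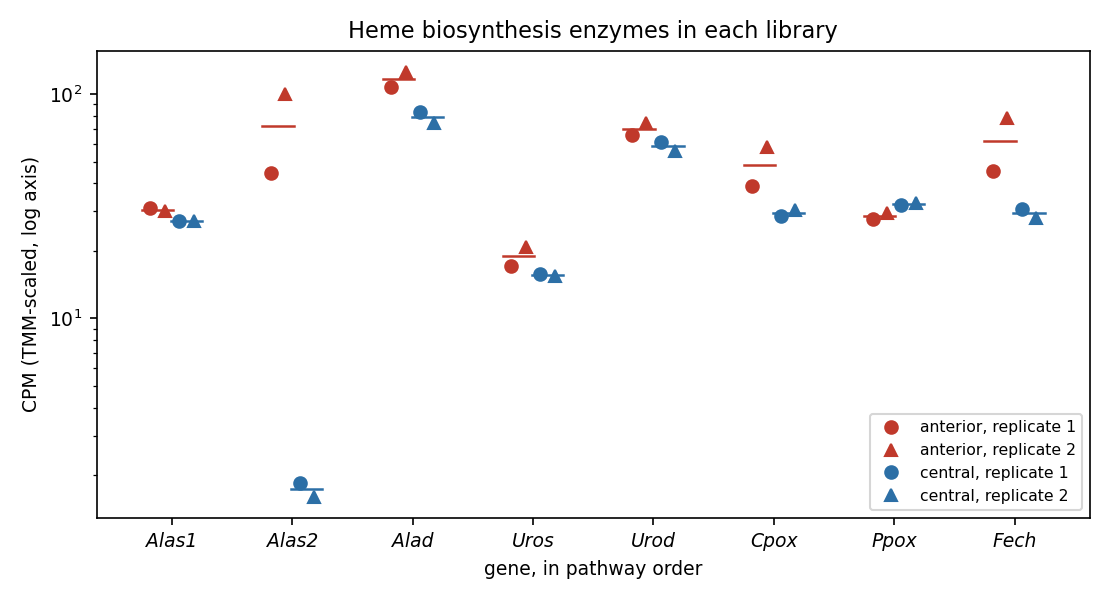
Level of each heme biosynthesis enzyme in each library, in TMM-scaled CPM on a log axis, with circles for replicate 1, triangles for replicate 2 and short lines for the mean of each group. Alas2 stands apart at 44.4 and 100 CPM in anterior against 1.85 and 1.61 CPM in central libraries, and the anterior replicates lie far apart for Alas2, Fech and Cpox but close together for Alas1 and Ppox.

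Alas2, the erythroid aminolevulinate synthase, lies on chrX:150547375-150570638 (GRCm38, plus strand). Its counts were 1480 and 2948 in the anterior libraries, against 57 and 52 in the central ones. Both anterior values lay far above both central values, and in CPM the higher anterior value, 100, was 2.26 times the lower, 44.4. The mean level was 72.4 ± 39.7 CPM in anterior cells and 1.73 ± 0.17 CPM in central cells (SD, n = 2 each). The log2 fold change was 5.39 ± 0.41 (SE), or 41.8-fold, and the adjusted p by edgeR was 4.17e-05. Without anterior replicate 2 the fold was 25.7 and without anterior replicate 1 it was 58.2, and the gene was called either way. On the opposite strand, Apex2, a DNA repair nuclease gene, shares 311 bases with the Alas2 exons, 15.3% of their length. Apex2 had 737 and 581 counts in the anterior and 618 and 729 counts in the central libraries and did not separate the groups (adjusted p = 0.914 by edgeR). How the counting treated strand is not given in the sources used here, so the part of Apex2 reads in the low central counts of Alas2 was not tested.

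Alas1, the ubiquitous synthase, lies on chr9:106233455-106248654 (minus strand). Its counts were 1034 and 884 in the anterior libraries, against 836 and 880 in the central ones. After scaling these were 31.0 and 30.1 CPM against 27.1 and 27.2 CPM, without overlap but close together. The log2 fold change was 0.17 with a 95% interval of -0.05 to 0.39, and the gene was not called (adjusted p = 0.245 by edgeR). This interval lies wholly below that of Alas2, 4.45 to 6.32.

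Alas2 therefore took different shares of the aminolevulinate synthase counts. It made up 58.9% of the summed counts of both forms in anterior replicate 1 (95% exact binomial interval 56.1% to 61.6%) and 76.9% in anterior replicate 2 (75.0% to 78.8%). In the central libraries the shares were 6.38% (4.21% to 8.95%) and 5.58% (3.68% to 8.07%). The intervals were computed on halved counts, since both mates of a read pair appear to have been counted, and they cover counting error only. They do not overlap between the populations. Per kilobase of exon, Alas2 was 2.78 and 6.48 times Alas1 in the anterior libraries, whereas Alas1 was 7.55 and 8.71 times Alas2 in the central ones.

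Alad, aminolevulinate dehydratase, makes porphobilinogen in the cytosol and lies on chr4:62509169-62519918 (minus strand). It measured 107 and 126 CPM in the anterior libraries and 83.7 and 74.1 CPM in the central ones, with no overlap. The log2 fold change was 0.56 ± 0.10 (SE), 1.48-fold, and the adjusted p by edgeR was 0.00381. Alad stayed called without either anterior library, at 1.37-fold without replicate 2 and 1.59-fold without replicate 1.

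Uros, uroporphyrinogen III synthase, closes the ring, and Urod, uroporphyrinogen decarboxylase, trims its side chains. Uros measured 17.2 and 20.8 CPM in anterior and 15.8 and 15.5 CPM in central libraries. Its log2 fold change was 0.28 (95% interval -0.04 to 0.60; adjusted p = 0.189 by edgeR). Both anterior values of Uros lay above the central ones, but the gene was not called. Urod measured 65.5 and 74.7 CPM in anterior and 61.5 and 55.5 CPM in central libraries. Its log2 fold change was 0.26 (95% interval 0.04 to 0.48), and its adjusted p of 0.0831 by edgeR missed the threshold. Urod passed the threshold when no filter on low counts was used (adjusted p = 0.0471 by edgeR) and without central replicate 1 (0.0268). Without anterior replicate 2 its adjusted p was 0.446. Uros lies on chr7:133686243-133710072 and Urod on chr4:116989965-116994413, both on the minus strand.

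Cpox, coproporphyrinogen oxidase, and Ppox, protoporphyrinogen oxidase, are the oxidases that act one after the other in mitochondria. Cpox measured 39.0 and 58.1 CPM in the anterior libraries and 28.7 and 30.5 CPM in the central ones, with no overlap. The log2 fold change of Cpox was 0.71 ± 0.17 (SE), 1.64-fold, and the adjusted p by edgeR was 0.0158. Without anterior replicate 2 it was 1.32-fold and not called (adjusted p = 0.0644), so the call for Cpox needs that library. Ppox measured 27.8 and 29.5 CPM in the anterior libraries and 32.1 and 32.8 CPM in the central ones, with no overlap. Its log2 fold change was -0.18 (95% interval -0.40 to 0.03), and it was not called (adjusted p = 0.213 by edgeR). The difference between the fold changes of Cpox and Ppox was not tested. Cpox lies on chr16:58670292-58717636 (plus strand) and Ppox on chr1:171275990-171281186 (minus strand).

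Fech, ferrochelatase, completes heme and lies on chr18:64452914-64490251 (minus strand). Its counts were 1509 and 2290 in the anterior libraries, against 946 and 909 in the central ones, or 45.2 and 78.0 CPM against 30.7 and 28.1 CPM. The groups did not overlap, and the anterior libraries differed from each other by more than the lower of them differed from the central ones. The log2 fold change was 1.07 ± 0.21 (SE), 2.09-fold, and the adjusted p by edgeR was 0.00785. Without anterior replicate 2 it was 1.55-fold and without anterior replicate 1 it was 2.66-fold, and Fech was called either way.

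Levels of different genes can be compared only per length, here as CPM per kilobase of exon. In central cells Alad led at 62.1 and Urod followed at 39.3, then Ppox at 17.8, Cpox at 9.55, Alas1 at 6.86, Uros at 6.57, Fech at 4.08 and Alas2 at 0.85 CPM per kilobase. In anterior cells Alad at 91.7 and Urod at 47.1 again came first on this scale, and Alas2 was next at 35.6. The rest of the anterior order was Ppox at 15.7, Cpox at 15.7, Fech at 8.56, Uros at 7.99 and Alas1 at 7.72 CPM per kilobase. Several neighbours in this order overlapped in their libraries. In anterior cells Alas2 overlapped Urod, at 21.8 and 49.3 against 44.0 and 50.2 CPM per kilobase, and Ppox overlapped Cpox. Fech (6.28 and 10.8), Uros (7.23 and 8.74) and Alas1 (7.83 and 7.61) also overlapped there, with Alas1 highest and Fech lowest of them in replicate 1. In central cells Alas1 (6.85 and 6.86) lay only just above Uros (6.63 and 6.50). Exon length is the union over annotated transcripts, so a gene with a long annotated 3′ end that the cells do not use is placed too low.

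**Figure D2:**
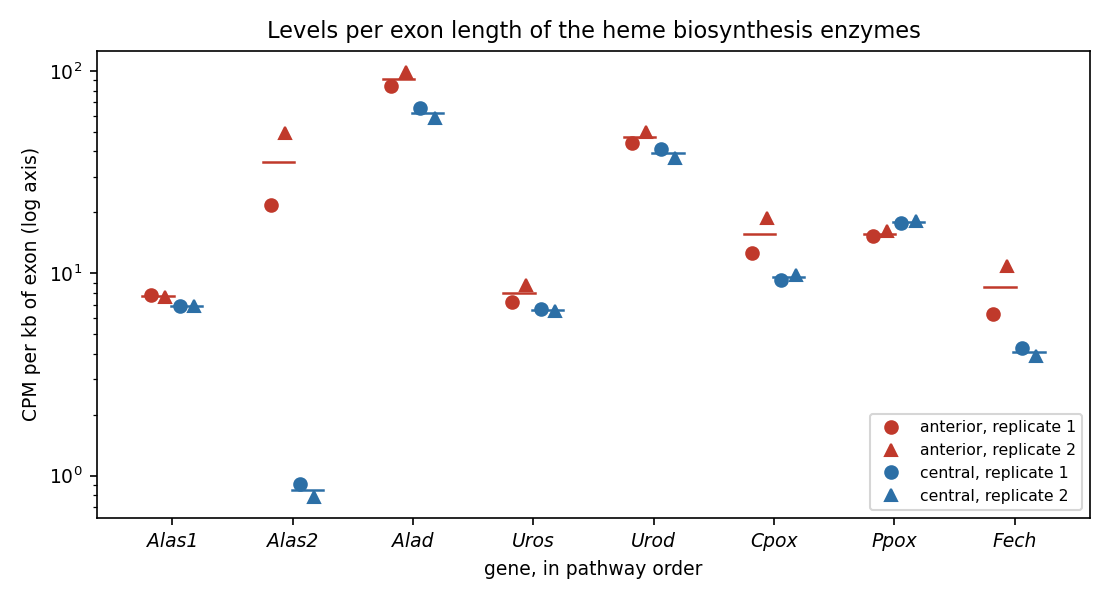
CPM per kilobase of exon for each enzyme in each library on a log axis, with symbols as in the plot of CPM by library. Alad and Urod are first and second in the mean of both populations, and Alas2 goes from the lowest place in central (0.85) to the place after Urod in anterior cells (35.6).

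The enzymes also differed in how far apart the anterior libraries were. The level in anterior replicate 2 was 2.26 times that in replicate 1 for Alas2, 1.73 times for Fech and 1.49 times for Cpox. For Uros, Alad, Urod and Ppox the ratio was 1.21, 1.17, 1.14 and 1.06, and for Alas1 it was 0.97. Among 9489 tested genes with a mean of at least 10 CPM, 0.126% had a ratio as high as that of Alas2, 0.211% as high as that of Fech and 0.358% as high as that of Cpox, and 66.6% as high as that of Alas1. Red cell genes also had ratios above 1, and those listed here were higher than that of any of the 8 enzymes. The ratio was 2.51 for the embryonic beta-type globin Hbb-y, 2.62 for the embryonic alpha-type globin Hba-x and 2.62 for Hbb-bh1. It was 2.60 for the anion exchanger Slc4a1, 2.42 for the erythroid regulator Klf1 and 3.04 for Gata1. The erythroid marker Epor differed less, at 7.34 and 11.8 CPM in anterior replicates 1 and 2. Between the central libraries the same ratio ran from 0.87 for Alas2 to 1.06 for Cpox over the 8 enzymes. The part of red cell RNA in the enzymes' differences was not tested.

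**Figure D3:**
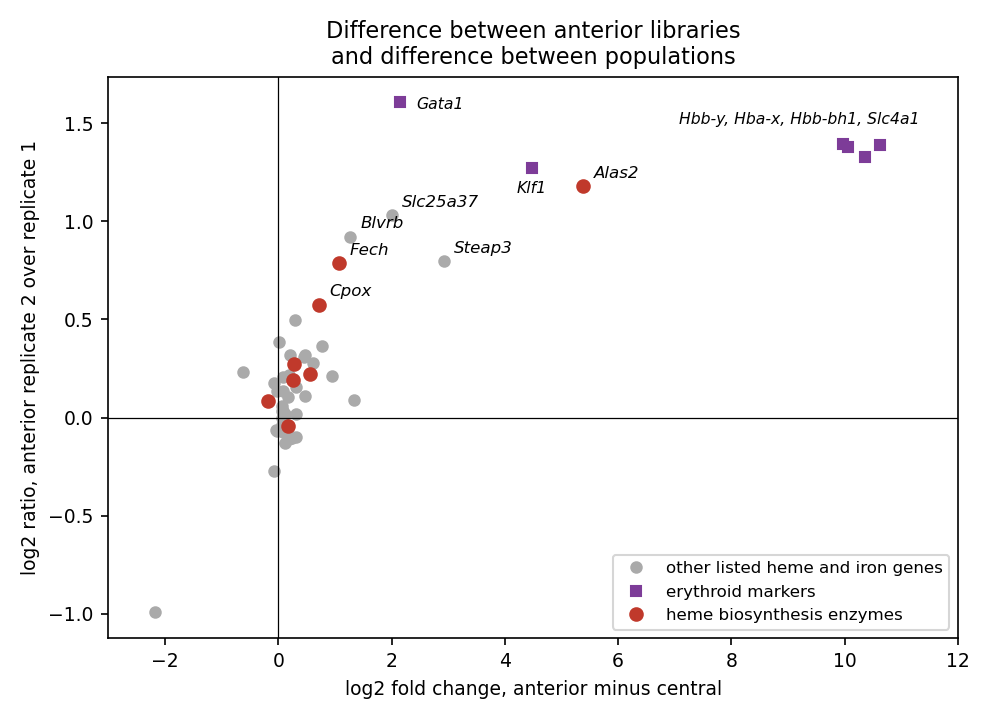
Log2 ratio of anterior replicate 2 over replicate 1 (vertical) against the log2 fold change between populations (horizontal) for the 8 enzymes (red), the other listed heme and iron genes (grey) and 6 erythroid markers (purple squares). Both axes use the anterior libraries. Alas2, Fech and Cpox lie away from 0 on both axes, with Slc25a37, Blvrb and Steap3. Alad lies at 0.56 on the horizontal and 0.22 on the vertical axis, and Alas1, Uros, Urod and Ppox lie closer to the origin.

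Alas2 was also set against the embryonic globins of the same library. Per 1000 counts of Hbb-y, Hba-x and Hbb-bh1 together there were 14.0 Alas2 counts in anterior replicate 1 and 12.5 in anterior replicate 2. In the central libraries there were 620 and 263 Alas2 counts per 1000 globin counts, from 92 and 198 globin counts. Relative to the globins, counts assigned to Alas2 were thus higher in the central libraries. These few central Alas2 counts, 57 and 52, did not follow the globins from one central library to the other. The part of Apex2 reads in them was not tested.

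The genes whose pattern over the 4 libraries lay closest to that of Alas2 were sought among 12825 tested genes with a mean of at least 1 CPM, by Euclidean distance between centred log2 CPM. The nearest were Adra2b at a distance of 0.58, Pkhd1l1 at 0.59, BC021767 at 0.67, Tal1 at 0.91 and Car2 at 0.92. Central values of Adra2b and BC021767 lay below the floor of 3 counts. Their distances therefore depend on the 0.5 added to every count before the log. Tal1 encodes a transcription factor of the blood lineages and measured 9.86 and 25.0 CPM in anterior against 0.88 and 0.62 CPM in central libraries. Car2, the carbonic anhydrase abundant in red cells, measured 31.8 and 68.8 CPM against 1.88 and 2.44 CPM. Adra2b measured 2.16 and 7.36 CPM against 0.065 and 0.062 CPM, and Pkhd1l1 5.69 and 12.5 CPM against 0.13 and 0.19 CPM. The likeness to Alas2 was the ground on which these genes were chosen. With 4 libraries it rests mainly on the difference between populations.

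The genes that feed the pathway and carry its intermediates numbered 12, with a median log2 fold change of 0.16. Of these 12, 4 were called higher in anterior cells, where 10.7% of all tested genes were. The largest change among the 4 was that of Slc25a37, mitoferrin 1, which imports iron into the mitochondria of red cell precursors. It measured 81.3 and 166 CPM in the anterior libraries and 30.4 and 31.3 CPM in the central ones, a log2 fold change of 2.0 ± 0.27 (SE; adjusted p = 0.00117 by edgeR), or 4.0-fold. Without anterior replicate 2 it was 2.64-fold and still called. Its widely expressed relative Slc25a28, mitoferrin 2, measured 19.0 and 19.3 CPM against 18.4 and 16.7 CPM and did not pass (adjusted p = 0.520 by edgeR). The mitochondrial ABC transporters Abcb10 and Abcb6 rose by 0.62 and 0.47 on the log2 scale, and the glutathione carrier Slc25a39 rose by 0.31. The glycine carrier Slc25a38, which supplies the opening step, measured 30.7 and 31.4 CPM against 30.3 and 28.7 CPM (adjusted p = 0.653 by edgeR). Slc25a39 was not called without anterior replicate 1 (adjusted p = 0.0624 by edgeR) or without anterior replicate 2 (0.0895). Slc25a37, Abcb6 and Abcb10 were called without any 1 of the 4 libraries. Glrx5, a carrier of iron-sulfur clusters, and Iscu, their assembly scaffold, were not called with all libraries (adjusted p = 0.223 and 0.693 by edgeR). Glrx5 was at 1.28-fold without anterior replicate 1 and 1.03-fold without anterior replicate 2. Iscu was at 1.30-fold without central replicate 1 and 0.91-fold without central replicate 2.

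Among 13 genes of heme use, export and breakdown, 2 were called higher, where 10.7% of all tested genes were. The median log2 fold change of the 13 was 0.12. Blvrb, biliverdin reductase B, is abundant in red cells and measured 10.6 and 20.0 CPM against 6.91 and 5.81 CPM (log2 fold change 1.26, adjusted p = 0.0136 by edgeR). Abcg2, an exporter of porphyrins, measured 30.5 and 37.7 CPM against 24.8 and 24.7 CPM (log2 fold change 0.46, adjusted p = 0.0259 by edgeR). Neither was called without anterior replicate 2, where edgeR's test called 0 of the 13 and 2 had an unadjusted p-value under 0.05. Hmox1, the inducible heme oxygenase, was at 19.8 and 24.6 CPM against 17.3 and 14.7 CPM and missed the threshold (adjusted p = 0.0520 by edgeR). It was called without anterior replicate 1 (0.0204) and without central replicate 1 (0.0203), and in the latter case Hccs, which attaches heme to cytochrome c, was called as well (0.00117).

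Of 8 genes of iron uptake and storage, 4 were called higher, where 10.7% of all tested genes were. The median log2 fold change of the 8 was 0.55. Steap3, the ferrireductase of the transferrin cycle in red cell precursors, measured 9.53 and 16.6 CPM against 2.01 and 1.42 CPM (log2 fold change 2.92 ± 0.32 SE, adjusted p = 0.000366 by edgeR). Of the ferritin subunits, Fth1 rose by 0.77 on the log2 scale, from 258 ± 10.7 to 440 ± 77.7 CPM (SD, n = 2), and Ftl1 measured 1133 and 1282 CPM against 1328 and 1217 CPM and did not pass (adjusted p = 0.546 by edgeR). Tfrc, the transferrin receptor, rose by 0.32 on the log2 scale, and the iron exporter Slc40a1 by 0.94. Slc11a2, Ncoa4 and Trf had log2 fold changes of 0.20, 0.29 and 1.34 and were not called (adjusted p 0.204, 0.210 and 0.138 by edgeR). Without anterior replicate 2, only Steap3 and Fth1 were called. Ncoa4 was called without anterior replicate 1 (adjusted p = 0.0104 by edgeR). Trf was called without central replicate 2, at 5.85-fold (0.0129), and was at 1.63-fold without central replicate 1 (0.421).

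Macrophages recycle heme iron and are known to express Hmox1 and Slc40a1. Of 9 macrophage and white cell markers, 5 were called higher in anterior cells, where 10.7% of all tested genes were. The summed levels of the 9 were 34.6 and 26.8 CPM against 15.5 and 16.1 CPM. The complement genes C1qa, C1qb and C1qc differed most among the 9, at 3.18 and 1.98 CPM against 0.32 and 0 CPM for C1qa. This summed level was lower in anterior replicate 2 than in replicate 1. Its part in these results was not tested. Of 7 endothelial markers, 5 were called lower in anterior cells, where 12.3% of all tested genes were. The summed levels of the 7 were 5.13 and 9.10 CPM against 25.2 and 36.6 CPM. All 5 markers of myogenic precursors were called lower in anterior cells, at summed levels of 0.75 and 0.51 CPM against 82.9 and 71.3 CPM, and so were 6 of 7 markers of surface ectoderm, at 6.35 and 5.86 CPM against 34.0 and 127 CPM. The part of these cell types in the enzymes' differences was not tested.

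The list of heme and iron sensors held 7 regulators, of which the coactivator Ppargc1a and the respiration factor Nrf1 are not sensors. From this list Bach1, the heme-binding repressor, was called higher, at 136 and 127 CPM against 110 and 111 CPM (log2 fold change 0.25, adjusted p = 0.0318 by edgeR). Its call was lost without anterior replicate 1 (adjusted p = 0.257) and without anterior replicate 2 (0.0842). Ppargc1a, a coactivator known to induce Alas1 in liver, fell from 10.6 ± 0.51 CPM in central to 2.34 ± 1.10 CPM in anterior cells (SD, n = 2; log2 fold change -2.17 ± 0.31 SE, adjusted p = 0.00153 by edgeR). Alas1 itself was not called, as given above. The heme-regulated kinase gene Eif2ak1, the iron regulatory protein genes Aco1 and Ireb2, the iron-sensing Fbxl5 and the respiration factor Nrf1 had log2 fold changes between 0.07 and 0.16 and were not called.

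**Figure D4:**
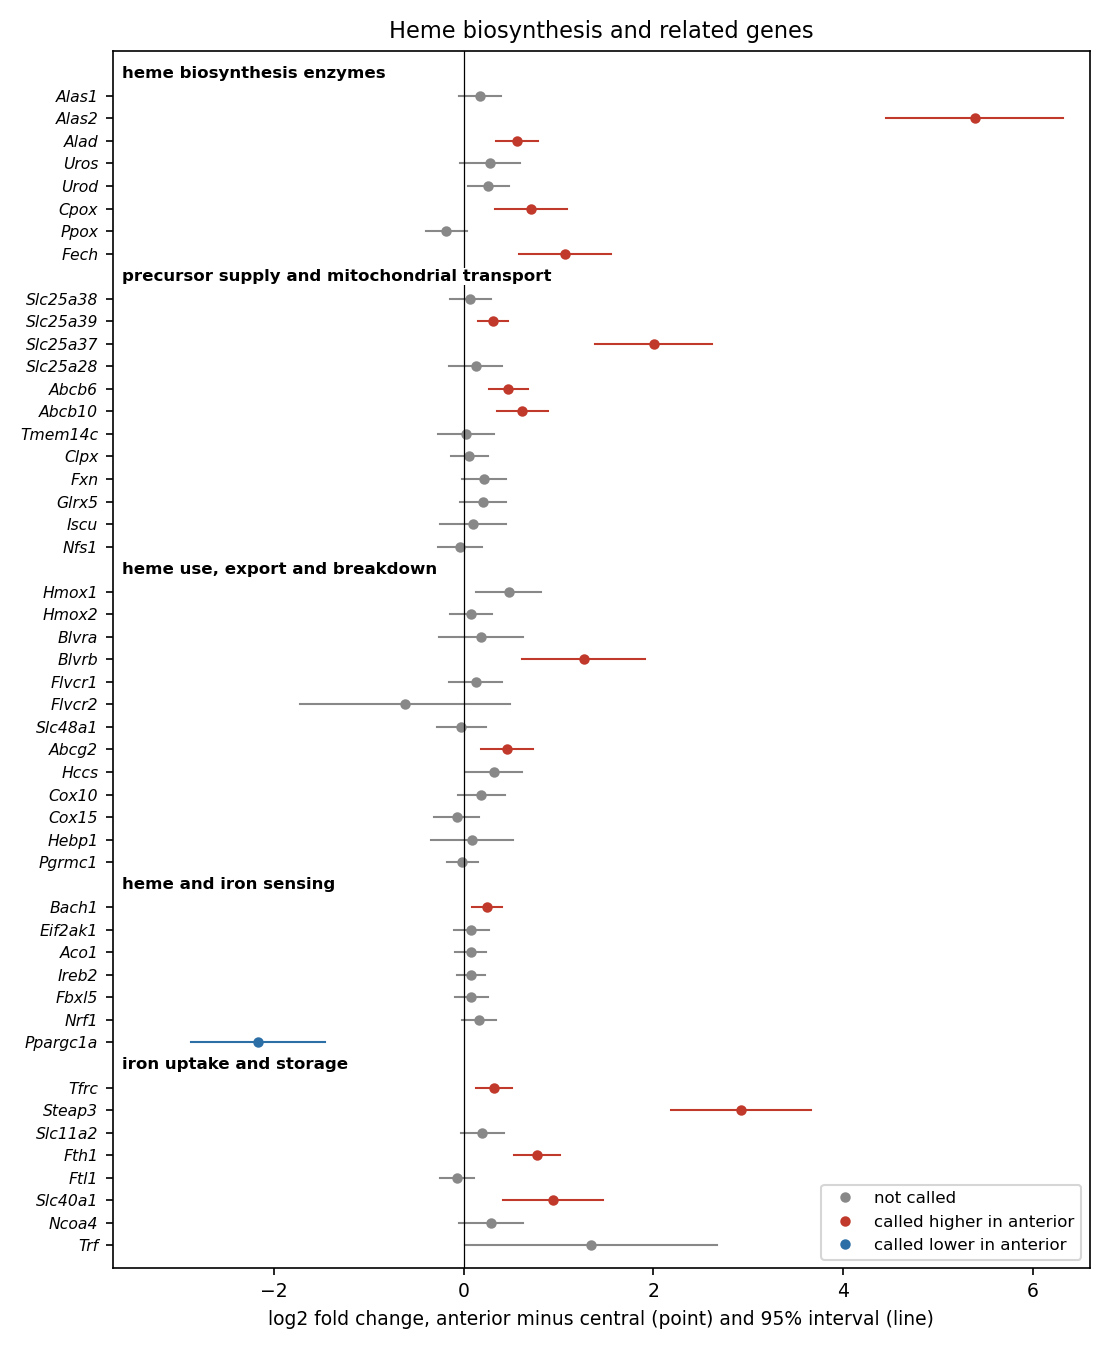
Log2 fold change, anterior minus central (point), with its 95% interval (line), for the 8 enzymes and 40 related genes, grouped by role and coloured by call. Ppargc1a at -2.17 is the only called gene of the plot that is lower in anterior cells, and Alas2 at 5.39 has the largest change on the plot.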

How the data were processed

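RNA was sequenced from 2 anterior and 2 central sorted hindlimb libraries. The authors deposited whole-number counts per gene symbol, not normalized. Per the submitters' processing notes, STAR 2.7.9a and HTSeq were among the tools and mm10 was the build. The annotation and strand setting are not given in the sources used here. Of counts from 1 to 10, 72.8% to 75.6% were even, as when both mates of a pair are counted, so counts overstate fragments, and halved counts were an alternative.

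Columns were matched to sample titles by domain and number. The counts were analysed with edgeR 4.0.16 (R 4.3.3): filterByExpr, TMM, and quasi-likelihood F tests, corrected by Benjamini-Hochberg over 14610 genes, with all 4 libraries in 1 unblocked fit. The SE is the absolute log2 fold change over the square root of F. Intervals are 95%. The scripts were tested on simulated data. Depth gave a floor of 3 counts at 0.090 to 0.100 CPM. No replicate pair agreed within sampling noise (chi-square per degree of freedom 16.0 and 8.98 on halved counts).

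All 8 enzymes are named whatever their values. From each related list the text names called genes, up to the 4 largest changes, and every gene of lists of 8 or fewer. Slc25a39, Slc25a38, Slc25a28, Glrx5, Iscu, Hccs, Hmox1, Apex2 and the markers were added after values were seen. Enzymes and lists were chosen with earlier results of these data known, and 3 genes of these lists are not reported here. Coordinates and exon lengths are from GENCODE M21 (GRCm38), and promoters from RefSeq (GRCm38.p6). Alternatives were other scalings, filters, limma-voom 3.58.1, the DESeq2 1.42.0 Wald test, halved counts, a replicate block and leaving out each library.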

Additional observations from a re-analysis of the deposited data

How the results depend on the processing

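Under the scalings, filters, tools, halved counts and replicate block that were run, each of the 8 enzymes kept its direction, and 7 of the 8 kept their side of the threshold. Urod was the exception, called without a filter on low counts. Alas1, Uros and Ppox were not called, and Alas2, Alad and Fech were called, under all 14 alternatives. Leaving out each library gave 2009 to 3697 called genes against 3351, with 2009 without anterior replicate 2, and 3 to 5 enzymes called higher. In those fits the lone library is assumed to vary like the others. Leaving out each library, chosen for the related lists after the data were seen, gave 3 to 5 genes of precursor supply and transport called higher against 4, 0 to 4 of heme use against 2, 2 to 5 of iron uptake against 4, and 0 to 1 of the heme and iron sensors against 1. It was 0 without anterior replicate 1 or 2, where edgeR gave 0 and 1 at an unadjusted p-value under 0.05. With the replicate block, which only shared numbers in the titles link, 3586 genes and the same number of enzymes, 4, were called. Replicate differences in the populations correlated at 0.040 (Pearson) across genes. The cause of these changes was not tested. With 2 libraries a group, differences of the size of that of Urod lie at the limit of the test.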

Other observations

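The erythroid markers did not differ by one common factor. The embryonic globins had log2 fold changes, anterior minus central, of 9.98 for Hba-x, 10.36 for Hbb-y and 10.62 for Hbb-bh1. Genes of the red cell membrane ranged from 3.29 for Ank1 through 7.03 for Ermap, 7.68 for Epb42 and 8.0 for Rhag to 10.06 for Slc4a1. Regulators and the erythropoietin receptor were at 1.75 for Epor, 2.14 for Nfe2, 2.15 for Gata1, 4.48 for Klf1 and 4.54 for Tal1. Alas2, at 5.39, lay above these 5 genes and Ank1 and below the other 7. The central libraries held 58 and 78 counts of Ank1, 18 and 38 counts of Gata1, 48 and 52 of Nfe2 and 89 and 90 of Epor, but at most 6 counts of Slc4a1 and Ermap and at most 2 of Epb42 and Rhag, whose folds rest on very few central counts.

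Genes of megakaryocytes and platelets, which share Gata1, Nfe2 and Tal1 with red cells, did not separate the populations in the same way. Pf4 measured 1.08 and 1.09 CPM in the anterior libraries and 1.43 and 1.54 CPM in the central ones, and Itga2b 1.11 and 2.52 CPM against 1.27 and 2.29 CPM (adjusted p 0.492 and 0.978 by edgeR).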
